A study of Homo sapiens with 647 samples.

Results

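The results below concern the FGFR1 line of the estrogen receptor positive luminal breast cancer line T47D, held on fulvestrant, palbociclib and FGF2 and given either trametinib or FIIN-3. Members were chosen by title: the 6 libraries titled FGFR1_Fulv.Palbo.FGF2.Tram, set against the 6 titled FGFR1_Fulv.Palbo.FGF2.FIIN.3, which makes 12 of the 647 SMART-Seq2 RNA sequencing libraries of the series. All 12 came from cells that carried FGFR1 on the lentiviral plasmid pLX307 and had been plated in 96-well plates, and all received 100 nM fulvestrant, 1 µM palbociclib and FGF2 for 24 h; no dose is stated for FGF2. The Tram arm also received 500 nM trametinib and the FIIN-3 arm 100 nM FIIN-3, so each drug was present at 1 dose and neither arm held both inhibitors. Further groups were used only for comparison: the same pair of treatments in the FGFR2_WT line (6 Tram and 5 FIIN-3 libraries), in the parental line (6 and 6) and in the GFP line (6 and 5), the same pair without palbociclib in the FGFR1 line (6 and 6), and the FGFR1 line on Palbo+FGF2 with FIIN-3 (6) or without it (6), both without fulvestrant. The labels gave these as replicates without saying that they were separate cultures, so the p-values below measure the spread between these libraries. In bulk RNA, fewer cells of a kind and less RNA per cell cannot be told apart.

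FGF receptors are receptor tyrosine kinases that pass the FGF signal to several branches at once: through the adaptor FRS2 and RAS to the RAF, MEK and ERK kinases, and through GAB adaptors to PI3K and AKT, which hold FOXO transcription factors out of the nucleus. Trametinib is an allosteric inhibitor of MEK1 and MEK2 and acts on the ERK branch below the receptor, while FIIN-3 is a covalent inhibitor of FGF receptors that also binds EGFR. Fulvestrant degrades the estrogen receptor and palbociclib blocks CDK4 and CDK6, the kinases that D-type cyclins use to release E2F factors from RB. The comparison sets a block of MEK beside a block of the receptor in cells that are held on both.

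Total counts ran from 1991531 to 3189660 reads per library in the Tram arm (median 2513718) and from 2461965 to 3576527 in the FIIN-3 arm (median 3214832.5). The mitochondrial ribosomal RNA MT-RNR2 took 13.5 to 19.1% of reads in the Tram arm and 19.7 to 25.8% in the FIIN-3 arm, so the arms did not overlap in this share. FGFR1 had 1127, 1391 and 1543 CPM with trametinib, against 1152, 1278 and 1434 CPM with FIIN-3. The arms overlapped (log2 fold change 0.06 ± 0.08, adjusted p = 0.651), while the GFP line under the same drugs had 2.4 to 7.67 CPM with trametinib and 6.89 to 13.6 CPM with FIIN-3. The lines thus carried the labelled gene, although reads from the introduced and the endogenous FGFR1 cannot be separated in these counts. Of the 8 luminal breast line markers fixed as a list, none was without reads, and their summed level was 44393 to 56238 CPM in the Tram arm and 25713 to 32856 CPM in the FIIN-3 arm. The 18 markers of blood, stromal, endothelial and liver cells summed to 44.2 to 58.5 CPM in the Tram arm and 29.1 to 42.8 CPM in the FIIN-3 arm. Reads of 11 of the 18 were absent in all Tram libraries and of 8 in all FIIN-3 libraries, and CD3E, LYZ, COL1A2, COL3A1, PECAM1 and ALB had none in either arm.

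The 2 drugs left the FGFR1 line with different transcriptomes. Of 10452 genes tested, 1315 were higher (12.6%) and 1309 lower (12.5%) with trametinib than with FIIN-3, 25.1% in all, at an adjusted p under 0.05 in edgeR's quasi-likelihood test. In the limma fit of the deposited log2 values 73.1% of the called genes were higher with trametinib, against 50.1% here, and the median of all genes stood at 0.12 there and at -0.01 here on the log2 scale. For 1180 genes (11.3%) all 6 Tram libraries lay on one side of all 6 FIIN-3 libraries, 619 of them above (5.92%) and 561 below (5.37%). Genes named below from the lists were picked mainly by smallest p, so arms without overlap are partly a result of that choice. Leaving the mitochondrially encoded genes out of the counts gave 2611 called genes, of which 2535 were among the 2624 called with them. In the text that follows, a run of values for an arm gives the lowest, the median and the highest of its 6 libraries in counts per 1000000 reads (CPM), and a fold change is trametinib over FIIN-3 on the log2 scale with its standard error.

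**Figure D1:**
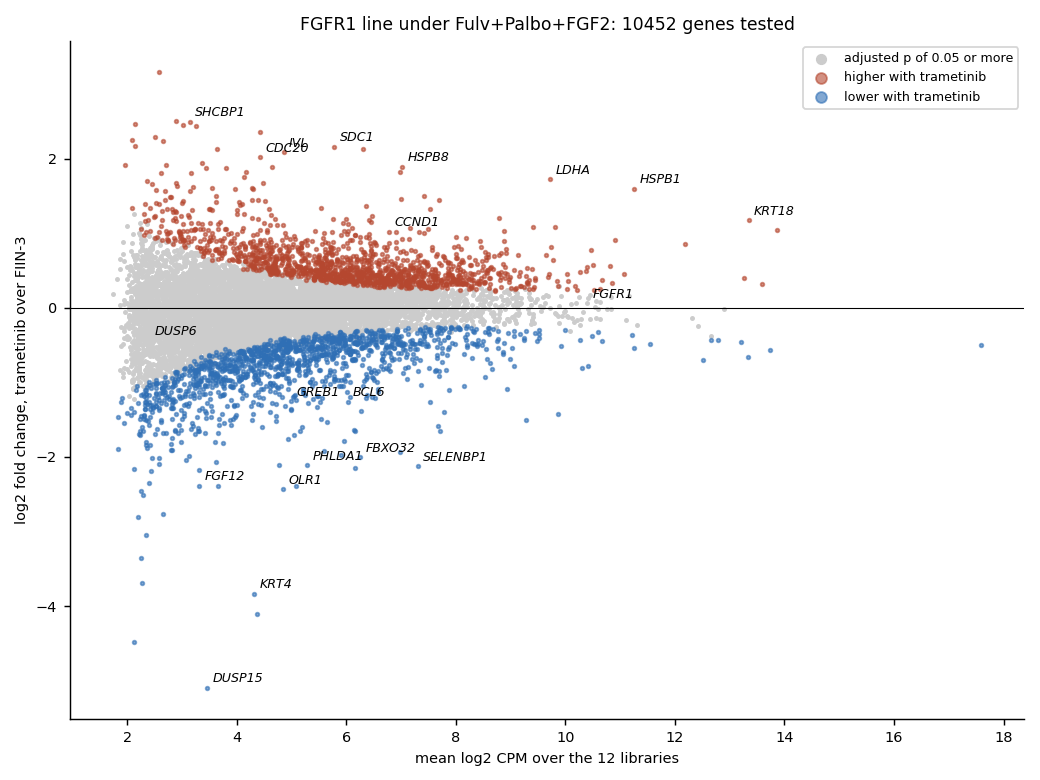
Log2 fold change of trametinib over FIIN-3 (vertical axis) against mean log2 CPM over the 12 libraries (horizontal axis) for the 10452 genes tested, with genes past an adjusted p of 0.05 in colour and genes of the text named. Higher and lower genes (1315 and 1309) spread about evenly, while FGFR1 (0.06) and DUSP6 (-0.44) sit among the genes not called.

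Several direct outputs of ERK, DUSP6, SPRY4, ETV4, EGR1 and FOSL1, were near the floor in both arms. EGR1 and FOSL1 were chosen after their values were seen. Not all ERK-induced genes were this low, as PHLDA1 below shows. DUSP6, the cytoplasmic phosphatase that switches ERK off and is itself induced by ERK, had 1.46, 3.64 and 6.12 CPM with trametinib, against 1.14, 4.95 and 8.71 CPM with FIIN-3. The arms overlapped in full range (log2 fold change -0.44 ± 0.39, adjusted p = 0.455). For scale, the FGFR1 line on Palbo+FGF2 had 3.38, 4.95 and 9.37 CPM of DUSP6 with FIIN-3 added and 117.01, 147.8 and 194.1 CPM without it. SPRY4, a Sprouty inhibitor of receptor signalling, had 0 reads over the 6 Tram libraries and 2 over the 6 FIIN-3 libraries and so could not be tested, against 18 to 38 reads in each of the 6 Palbo+FGF2 libraries. The ETS factor ETV4 had 9 reads over the 6 Tram libraries and 2 over the 6 FIIN-3 libraries, against 10 to 27 reads in each Palbo+FGF2 library. EGR1, an immediate early zinc finger factor, had 0 reads over the 6 Tram libraries and 4 over the 6 FIIN-3 libraries and the AP-1 subunit FOSL1 had 0 reads over the 6 Tram libraries and 2 over the 6 FIIN-3 libraries, against 2 to 16 and 2 to 12 reads in each Palbo+FGF2 library. These genes were thus low in both arms, and at this depth a difference between them was not detectable.

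Of 16 listed phosphatases, Sprouty and SPRED inhibitors of this pathway, 7 had enough reads to be tested, with a median of -0.21. Among them 1 was higher and 1 lower (14.3% each), near the 12.6% and 12.5% of all genes. DUSP1, a nuclear phosphatase that also acts on p38 and JNK, was the higher one with 23.3, 59.8 and 74.5 CPM with trametinib, against 30.1, 36.2 and 42.1 CPM with FIIN-3. The arms overlapped (log2 fold change 0.60 ± 0.18, adjusted p = 0.011), and among the libraries of the second title-number range, 2 of each arm, the fold change was -0.04. DUSP4, a nuclear ERK phosphatase, was the lower one with 0.967, 4.45 and 6.12 CPM with trametinib, against 4.79, 8.29 and 12.7 CPM with FIIN-3 (log2 fold change -1.0 ± 0.34, adjusted p = 0.0302). That call did not hold in the limma fit or without any one of 6 of the 12 libraries. Of 26 listed ERK-induced transcription factors 14 were tested, 1 higher (7.1%) and 2 lower (14.3%), no more than about the shares of all genes. The median of that list was 0.04. PHLDA1, a pleckstrin homology domain protein on that list, was the clearest exception, with 10.8, 14.7 and 15.9 CPM with trametinib, against 50.1, 61.6 and 69.2 CPM with FIIN-3. Every Tram library lay below every FIIN-3 library (log2 fold change -2.11 ± 0.15, adjusted p = 1.08e-12). MYC, the growth-promoting factor, had 13.1, 17.3 and 20.6 CPM with trametinib, against 20.4, 23.7 and 26.1 CPM with FIIN-3 and did not pass the test (log2 fold change -0.44 ± 0.17, adjusted p = 0.0584). Outside the lists, the atypical phosphatase DUSP15 had 0, 0.319 and 1.26 CPM with trametinib, against 10.3, 15.3 and 38.8 CPM with FIIN-3, the lowest fold change of all genes tested (log2 fold change -5.09 ± 0.48, adjusted p = 8.91e-10). Palbo+FGF2 libraries had 9.35, 13.6 and 35.1 CPM of it with FIIN-3 and 0, 0.326 and 1.5 CPM without.

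**Figure D2:**
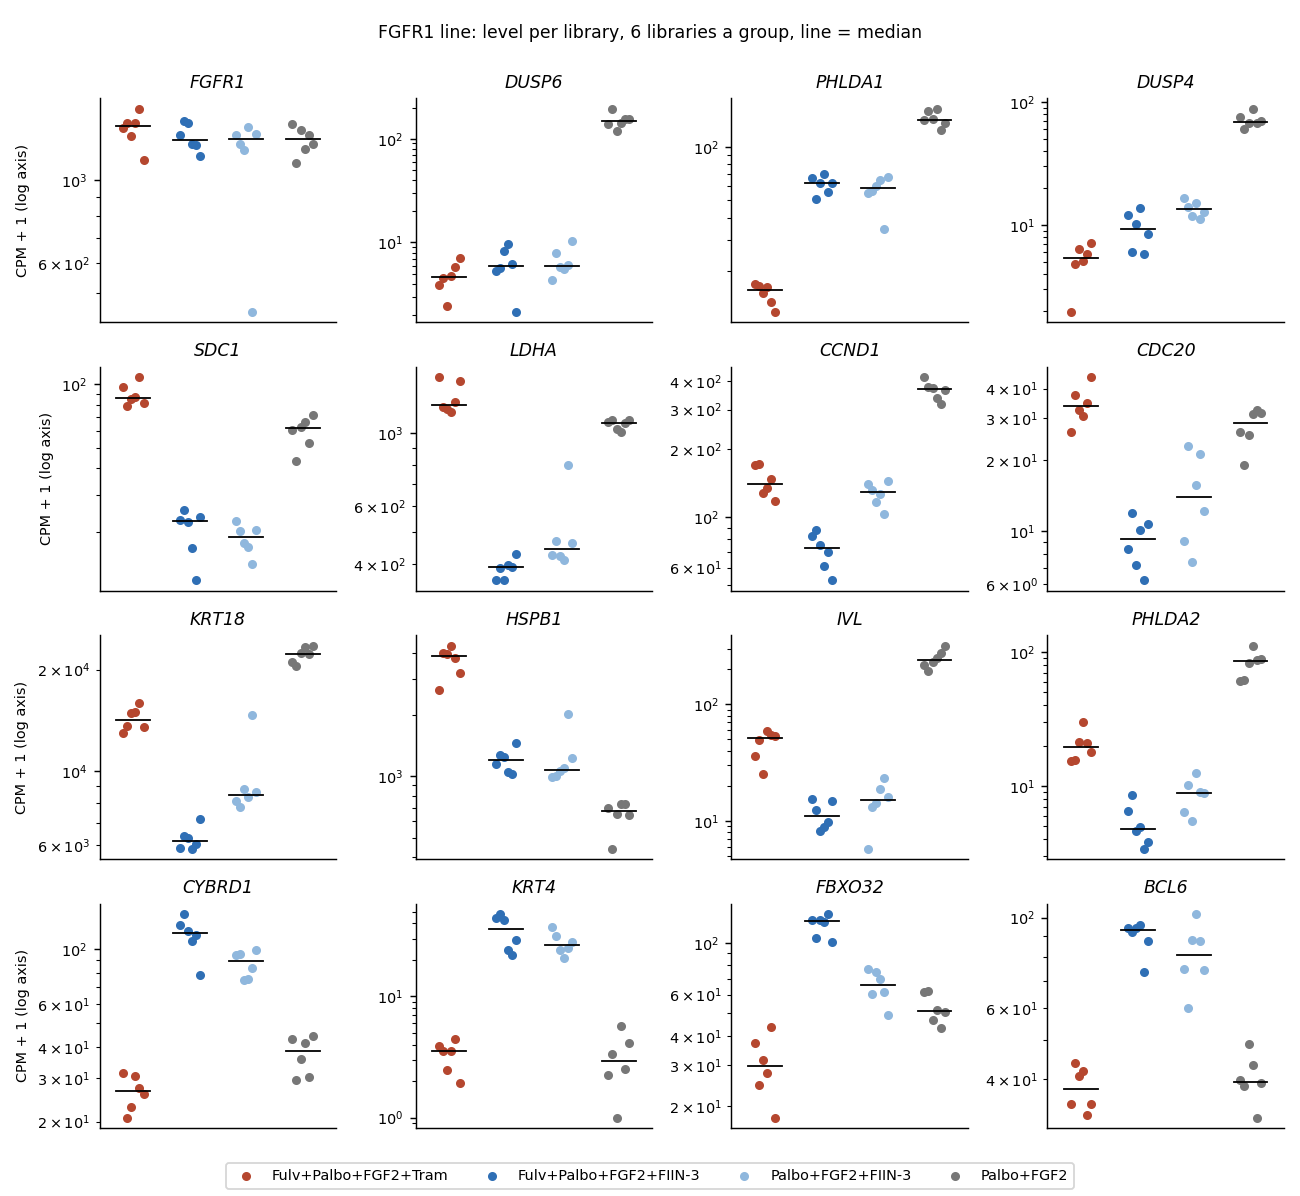
CPM + 1 per library (log axis) for 16 genes in the FGFR1 line, with 6 points a group and a line at the median; from left to right the Tram arm, the FIIN-3 arm, Palbo+FGF2+FIIN-3 and Palbo+FGF2. DUSP6 is low in the Tram and FIIN-3 arms (medians 3.64 and 4.95 CPM), while PHLDA1, LDHA, CCND1, CYBRD1 and KRT4 separate the 2 arms with no overlap.

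Receptor genes tended to be lower with trametinib. Of 26 listed receptor tyrosine kinases and adaptors 18 were tested, with a median of -0.31 against -0.01 for all genes. Of the 18, 3 were higher (16.7%) and 7 lower (38.9%), against 12.6% and 12.5% of all genes. FGFR4 had 24, 37.5 and 45.1 CPM with trametinib, against 47.6, 57.8 and 74.8 CPM with FIIN-3, and no Tram library reached the lowest FIIN-3 library (log2 fold change -0.72 ± 0.15, adjusted p = 0.000505). FGFR2 had 11.8, 15.3 and 26.5 CPM with trametinib, against 9.69, 20.04 and 25.4 CPM with FIIN-3 and did not pass the test (log2 fold change -0.21 ± 0.23, adjusted p = 0.562), and FGFR3, with medians of 0.802 and 0.723 CPM, was not tested. ERBB3, the kinase-impaired partner of ERBB2, had 199.4, 309.2 and 330.6 CPM with trametinib, against 247.7, 436 and 476 CPM with FIIN-3 (log2 fold change -0.50 ± 0.12, adjusted p = 0.00207). ERBB2 had 151.9, 200.3 and 249.7 CPM with trametinib, against 189.3, 268.8 and 291.6 CPM with FIIN-3 (log2 fold change -0.40 ± 0.11, adjusted p = 0.00669). Both overlapped between arms, and both calls were lost in the limma fit. The insulin receptor INSR had 2.82, 5.26 and 9.67 CPM with trametinib, against 7.21, 12.3 and 15.7 CPM with FIIN-3 (log2 fold change -1.13 ± 0.28, adjusted p = 0.00289). The ephrin receptor EPHA4 had 4.4, 7.18 and 12.1 CPM with trametinib, against 12, 15.9 and 22.9 CPM with FIIN-3 (log2 fold change -1.17 ± 0.26, adjusted p = 0.000783). EGFR, which FIIN-3 also binds, had 2.43, 5.73 and 8.22 CPM with trametinib, against 5.7, 10.1 and 14.1 CPM with FIIN-3. Its call (log2 fold change -0.85 ± 0.31, adjusted p = 0.0451) was lost in the limma fit, with no filter on low counts, and without any one of 7 libraries. The adaptor GAB2, which links receptors to PI3K, was higher, with 17.2, 23.5 and 35 CPM with trametinib, against 11.3, 14.6 and 19 CPM with FIIN-3 (log2 fold change 0.71 ± 0.21, adjusted p = 0.0105). Of 16 listed growth factor ligands 5 were tested and 1 was called: FGF12, an FGF homologue that stays inside the cell, had 0.972, 2.86 and 4.15 CPM with trametinib, against 9.5, 15.6 and 17.1 CPM with FIIN-3 with no overlap (log2 fold change -2.38 ± 0.29, adjusted p = 1.66e-07).

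Cyclin D genes and many cell cycle genes were higher with trametinib than with FIIN-3, with palbociclib present in both arms. CCND1, cyclin D1, had 116.7, 140.2 and 171.4 CPM with trametinib, against 51.6, 71.9 and 86.7 CPM with FIIN-3. The lowest Tram library exceeded the highest FIIN-3 library (log2 fold change 1.02 ± 0.12, adjusted p = 1.16e-07). CCND3, cyclin D3, was likewise higher without overlap, with 52, 68.3 and 90.8 CPM with trametinib, against 29.4, 43.2 and 48.5 CPM with FIIN-3 (log2 fold change 0.74 ± 0.14, adjusted p = 0.000219). The CDK4 and CDK6 inhibitor CDKN2B had 20.4, 21.7 and 37.7 CPM with trametinib, against 11.8, 16.1 and 23.2 CPM with FIIN-3, and its call (log2 fold change 0.60 ± 0.20, adjusted p = 0.0263) was lost without any one of 4 libraries. These were the 3 higher genes of 10 tested from the 15 listed, none was lower, and the median was 0.14. Of 35 listed genes of G1/S and DNA replication 22 were tested, and 11 were higher and 1 lower, with a median of 0.56. Of 30 listed genes of G2/M and mitosis 26 were tested, and 17 were higher and 1 lower, with a median of 0.91. Over all genes these shares were 12.6% and 12.5% and the median was -0.01.

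Promoters are shown for genes of the cell cycle lists and for a growth-arrest gene discussed further on. Promoter words are known for genes of these kinds. They are E2F sites in replication genes, the cell cycle homology region (CHR) in mitotic genes, and FOXO sites in growth-arrest genes. The sequences are the 250 bases before the start of the gene in RefSeq (GRCh38.p14), written 5′ to 3′ on the gene's strand with matches to the searched words in capitals. GINS2 lies at chr16:85688955-85689204 on the minus strand, CCNB2 at chr15:59104896-59105145 on the plus strand, CDC20 at chr1:43358731-43358980 on the plus strand and BTG1 at chr12:92145847-92146096 on the minus strand.
GINS2: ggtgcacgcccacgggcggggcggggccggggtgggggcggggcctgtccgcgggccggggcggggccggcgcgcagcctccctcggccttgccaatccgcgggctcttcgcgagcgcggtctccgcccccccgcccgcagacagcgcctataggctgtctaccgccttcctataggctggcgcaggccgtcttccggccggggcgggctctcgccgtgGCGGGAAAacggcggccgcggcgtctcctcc
CCNB2: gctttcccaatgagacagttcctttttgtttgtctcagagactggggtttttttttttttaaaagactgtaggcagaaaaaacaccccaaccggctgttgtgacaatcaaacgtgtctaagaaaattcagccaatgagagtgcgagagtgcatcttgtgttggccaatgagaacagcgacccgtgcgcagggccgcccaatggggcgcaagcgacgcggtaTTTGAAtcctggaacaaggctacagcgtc
CDC20: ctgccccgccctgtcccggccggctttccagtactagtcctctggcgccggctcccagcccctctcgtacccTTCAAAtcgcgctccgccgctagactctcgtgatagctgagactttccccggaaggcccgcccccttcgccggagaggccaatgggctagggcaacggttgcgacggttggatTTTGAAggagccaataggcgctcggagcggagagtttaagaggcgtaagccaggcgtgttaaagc
BTG1: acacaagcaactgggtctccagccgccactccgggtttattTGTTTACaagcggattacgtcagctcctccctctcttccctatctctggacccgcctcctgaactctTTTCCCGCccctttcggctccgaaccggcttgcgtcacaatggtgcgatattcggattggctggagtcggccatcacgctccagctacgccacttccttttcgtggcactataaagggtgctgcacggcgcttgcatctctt
The E2F words were TTTCCCGC, TTTGGCGC, TTTCGCGC and TTTGCCGC, the CHR word was TTTGAA and the FOXO word GTAAACA, each searched on both strands. In capitals, GINS2 holds an E2F word in reverse complement that begins 31 bases before the start, CCNB2 a CHR word at 29 bases, CDC20 a CHR word at 65 bases and another in reverse complement further upstream, and BTG1 a FOXO word in reverse complement and, nearer the start, an E2F word. Each promoter shown holds a searched word, so these examples do not show how often the words occur in their lists. Promoters were matched for 7978 of the 10452 genes tested. The CHR word was in 7 of 11 matched promoters (63.6%) of the 17 mitotic genes that were higher, in 7.75% of the promoters of all genes tested and in 13.6% of all 27305 promoters. Of the matched promoters of all tested mitotic genes, called or not, 10 of 19 held it (52.6%). An E2F word was in 3 of 8 matched promoters (37.5%) of the 11 replication genes that were higher, in 4.64% of those of all genes tested and in 2.79% of all promoters. Of the matched promoters of all tested replication genes 7 of 18 held one (38.9%). Over the promoters of all genes higher with trametinib the shares were 7.74% for the CHR word and 5.03% for an E2F word, close to those of all genes tested. These matches describe letters in a window and are not evidence of binding.

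In the replication list, CDC6, which loads the MCM helicase, had 15.6, 19.6 and 28.9 CPM with trametinib, against 1.24, 6.27 and 9.39 CPM with FIIN-3 with no overlap (log2 fold change 1.87 ± 0.28, adjusted p = 5.29e-06). The helicase subunit MCM4 had 148.8, 155.7 and 167.2 CPM with trametinib, against 77, 97.3 and 103.9 CPM with FIIN-3, also with no overlap (log2 fold change 0.75 ± 0.10, adjusted p = 7.63e-07). GINS2, a helicase cofactor whose promoter is shown above, had 26.8, 36.2 and 42.8 CPM with trametinib, against 13.4, 16.7 and 27.2 CPM with FIIN-3, and the arms just overlapped (log2 fold change 0.91 ± 0.18, adjusted p = 0.000267). Thymidine kinase TK1 was higher too, with 63.3, 87.5 and 113.4 CPM with trametinib, against 30.04, 46.7 and 65.3 CPM with FIIN-3 (log2 fold change 0.90 ± 0.15, adjusted p = 3.44e-05). The exception was UNG, the uracil DNA glycosylase, which was lower with 50.9, 61.4 and 66.3 CPM with trametinib, against 68.5, 85 and 93.8 CPM with FIIN-3 (log2 fold change -0.49 ± 0.12, adjusted p = 0.00229).

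In the mitotic list, CDC20, the activator of the anaphase-promoting complex, had 25.1, 32.7 and 43.7 CPM with trametinib, against 5.19, 8.27 and 11 CPM with FIIN-3 (log2 fold change 2.02 ± 0.20, adjusted p = 2.71e-09). Cyclin B2, CCNB2, had 26.5, 33.3 and 40.6 CPM with trametinib, against 11.8, 14.3 and 17.1 CPM with FIIN-3 (log2 fold change 1.24 ± 0.17, adjusted p = 1.3e-06). Neither overlapped between arms. The spindle checkpoint kinase BUB1 had 8.17, 10.5 and 18.4 CPM with trametinib, against 0, 2.01 and 4.38 CPM with FIIN-3 (log2 fold change 2.5 ± 0.40, adjusted p = 1.58e-05). The transcription factor MYBL2 had 3.89, 6.41 and 8.25 CPM with trametinib, against 0, 0.932 and 2.62 CPM with FIIN-3 (log2 fold change 2.47 ± 0.44, adjusted p = 7.79e-05). BIRC5, which encodes survivin, followed with 20.4, 23.9 and 37.1 CPM with trametinib, against 4.33, 8.65 and 18 CPM with FIIN-3 (log2 fold change 1.44 ± 0.25, adjusted p = 3.87e-05). The mitotic kinase PLK1 had 8.27, 13.7 and 18.8 CPM with trametinib, against 4.39, 8.16 and 9.39 CPM with FIIN-3, overlapping between arms (log2 fold change 0.91 ± 0.26, adjusted p = 0.00807). MKI67, the proliferation marker, had 70 reads over the 6 Tram libraries and 26 over the 6 FIIN-3 libraries and was not tested. The 1 lower gene was HMGB2, a chromatin protein, with 6.58, 10.8 and 12.6 CPM with trametinib, against 20.04, 23.3 and 36.8 CPM with FIIN-3 and no overlap (log2 fold change -1.31 ± 0.21, adjusted p = 1.26e-05). PKMYT1, the kinase that holds CDK1 inactive before mitosis, stood outside the list but among the 15 largest increases, with 10.6, 13.8 and 20.4 CPM with trametinib, against 0.983, 2.2 and 5.32 CPM with FIIN-3 (log2 fold change 2.43 ± 0.33, adjusted p = 1.04e-06).

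FOXO-type growth-arrest genes went the other way. Of 20 listed genes 14 were tested, with a median of -0.72. With trametinib 12 of them were lower (85.7%) and 1 higher (7.1%), against 12.5% and 12.6% of all genes. FBXO32, the ubiquitin ligase atrogin-1, had 16.9, 28.7 and 42.6 CPM with trametinib, against 99.5, 123.02 and 131.4 CPM with FIIN-3. The highest Tram library was less than the lowest FIIN-3 library (log2 fold change -2.0 ± 0.15, adjusted p = 3.44e-12). The repressor BCL6 had 31.6, 36.9 and 42.8 CPM with trametinib, against 72.3, 92.1 and 95 CPM with FIIN-3 (log2 fold change -1.26 ± 0.12, adjusted p = 1.53e-09). The antiproliferative gene BTG1, whose promoter is shown above, had 41.8, 61.6 and 75.3 CPM with trametinib, against 103.7, 113.1 and 127.02 CPM with FIIN-3 (log2 fold change -0.94 ± 0.13, adjusted p = 8.03e-07). CITED2, a CBP and p300 binding regulator, had 10.9, 16.2 and 22.4 CPM with trametinib, against 32.6, 36.1 and 56 CPM with FIIN-3 (log2 fold change -1.31 ± 0.18, adjusted p = 1.42e-06). KLHL24, a ubiquitin ligase adaptor, had 24.1, 29.1 and 40.6 CPM with trametinib, against 43.9, 63.4 and 67.9 CPM with FIIN-3 (log2 fold change -0.98 ± 0.15, adjusted p = 6.12e-06). None of these, picked by smallest p, overlapped between arms. Wholly lower with trametinib were 5.37% of all genes. TXNIP, the thioredoxin-binding protein that limits glucose uptake, was the 1 higher gene, with 150.6, 166.8 and 211.7 CPM with trametinib, against 104.7, 113.5 and 139.98 CPM with FIIN-3 (log2 fold change 0.53 ± 0.10, adjusted p = 0.000221). The FOXO word was in 1 of 10 matched promoters of the 12 lower genes, that of BTG1, and in that of the 1 higher gene, TXNIP. It was in 1.79% of those of all genes tested and in 2.98% of all promoters. Of the matched promoters of all tested growth-arrest genes 2 of 12 held the word, so the BTG1 promoter is not typical of its list.

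In the lists of glycolysis, heat shock chaperones and the unfolded protein response, more members were higher than lower with trametinib. Over all genes 12.6% were higher and 12.5% lower. Of 19 tested genes of glycolysis and hypoxia, from 22 listed, 10 were higher (52.6%) and 1 lower (5.3%), with a median of 0.45. LDHA, lactate dehydrogenase A, had 1163, 1221 and 1481 CPM with trametinib, against 356.1, 390.3 and 429 CPM with FIIN-3, with a wide gap between arms (log2 fold change 1.72 ± 0.09, adjusted p = 5.43e-16). ALDOA, aldolase A, had 2275, 2416 and 2827 CPM with trametinib, against 1168, 1264 and 1576 CPM with FIIN-3 (log2 fold change 0.91 ± 0.09, adjusted p = 8.21e-10). The platelet-type phosphofructokinase PFKP had 95.4, 125.8 and 133.9 CPM with trametinib, against 41.6, 52.2 and 63.6 CPM with FIIN-3 (log2 fold change 1.22 ± 0.12, adjusted p = 2.16e-09). PGK1, phosphoglycerate kinase, had 945, 975 and 1032 CPM with trametinib, against 549, 589 and 683 CPM with FIIN-3 (log2 fold change 0.71 ± 0.08, adjusted p = 4.57e-08). The exception was PFKFB3, which makes an activator of phosphofructokinase, with 14.1, 25.3 and 29.5 CPM with trametinib, against 33.9, 59.2 and 66.6 CPM with FIIN-3 (log2 fold change -1.22 ± 0.17, adjusted p = 1.04e-06). Of 13 heat shock chaperone genes 6 were higher and none lower, with a median of 0.33. The small heat shock protein HSPB1 had 2637, 3864 and 4351 CPM with trametinib, against 1022, 1193 and 1455 CPM with FIIN-3 (log2 fold change 1.6 ± 0.10, adjusted p = 9.3e-14). HSPB8 had 180.2, 201.4 and 220.8 CPM with trametinib, against 44, 51.9 and 75.2 CPM with FIIN-3 (log2 fold change 1.89 ± 0.11, adjusted p = 2.46e-14). The constitutive chaperone HSPA8 had 5246, 6059 and 6438 CPM with trametinib, against 3028, 3247 and 3504 CPM with FIIN-3 (log2 fold change 0.86 ± 0.08, adjusted p = 2.28e-10). The arms of all 3, picked by smallest p, were apart, where 5.92% of all genes lay wholly above with trametinib.

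The lists that follow are to be read beside the 12.6% higher and 12.5% lower of all genes. Of 15 genes of the endoplasmic reticulum unfolded protein response 9 were higher and 2 lower, with a median of 0.35. HYOU1, a chaperone of that compartment, had 108.7, 152.5 and 190.2 CPM with trametinib, against 61, 89.2 and 100.1 CPM with FIIN-3 (log2 fold change 0.81 ± 0.13, adjusted p = 9.87e-06). HSPA5, its main HSP70 protein, had 1627, 1836 and 1984 CPM with trametinib, against 1276, 1405 and 1518 CPM with FIIN-3 (log2 fold change 0.38 ± 0.08, adjusted p = 0.000505). Of 25 tested genes of cholesterol and fatty acid synthesis 11 were higher and 2 lower, with a median of 0.25. The desaturase SCD had 381.5, 465 and 515 CPM with trametinib, against 202.1, 298.3 and 324.7 CPM with FIIN-3 (log2 fold change 0.64 ± 0.10, adjusted p = 1.22e-05). SREBF1, a transcription factor of this program, was lower, with 18.5, 21.7 and 36.8 CPM with trametinib, against 28.2, 43.5 and 46.7 CPM with FIIN-3 (log2 fold change -0.73 ± 0.17, adjusted p = 0.00202). SC5D, a late sterol desaturase, had 308.7, 439.6 and 594 CPM with trametinib, against 243.3, 274.2 and 309.99 CPM with FIIN-3 (log2 fold change 0.63 ± 0.11, adjusted p = 8.58e-05). Of 23 tested ribosome biogenesis genes 9 were higher and none lower, with a median of 0.23. RRP12, a factor of ribosomal subunit maturation, had 109.6, 140.4 and 172.6 CPM with trametinib, against 57.3, 77.9 and 87.7 CPM with FIIN-3 (log2 fold change 0.88 ± 0.12, adjusted p = 8.03e-07). Nucleolin, NCL, had 360.3, 392.8 and 426 CPM with trametinib, against 234.6, 295.8 and 337.2 CPM with FIIN-3 (log2 fold change 0.40 ± 0.09, adjusted p = 0.00148). Of 19 tested genes of the ATF4 amino acid response 3 were higher (15.8%) and 4 lower (21.1%), with a median of 0.06. SLC7A5, a transporter of large neutral amino acids, had 270.9, 323.7 and 352.01 CPM with trametinib, against 166.6, 185.7 and 219.2 CPM with FIIN-3 (log2 fold change 0.72 ± 0.09, adjusted p = 4.61e-07). PHGDH, the first enzyme of serine synthesis, was lower with 33.1, 36.3 and 43 CPM with trametinib, against 64.7, 77.6 and 88.9 CPM with FIIN-3 (log2 fold change -1.05 ± 0.12, adjusted p = 7.26e-08). The stress regulator NUPR1 was lower too, with 259.2, 316.9 and 349.8 CPM with trametinib, against 527, 646 and 815 CPM with FIIN-3 (log2 fold change -1.09 ± 0.10, adjusted p = 3.58e-10).

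Part of the list of the estrogen receptor and its induced genes was lower in RNA with trametinib, while the receptor gene did not pass the test. ESR1 had 26.1, 46.2 and 52 CPM with trametinib, against 43.6, 52.1 and 59 CPM with FIIN-3 (log2 fold change -0.27 ± 0.15, adjusted p = 0.187). The progesterone receptor gene PGR had 60.5, 72.8 and 96.1 CPM with trametinib, against 58.7, 90.8 and 109.01 CPM with FIIN-3 (log2 fold change -0.23 ± 0.13, adjusted p = 0.218). Of 20 tested genes from the 26 listed, 9 were lower (45%) and 1 higher (5%), against 12.5% and 12.6% of all genes. The median of the list was -0.25. GREB1, an estrogen-induced growth regulator, had 13.6, 18.9 and 19.9 CPM with trametinib, against 33.6, 43.6 and 49.9 CPM with FIIN-3 (log2 fold change -1.25 ± 0.15, adjusted p = 1.71e-07). SCUBE2, a secreted protein, had 5.75, 21.2 and 30.1 CPM with trametinib, against 67.6, 72.8 and 78.3 CPM with FIIN-3 (log2 fold change -1.92 ± 0.22, adjusted p = 5.33e-08). IGFBP4, an IGF-binding protein, had 12.3, 14.2 and 26.7 CPM with trametinib, against 38, 42.3 and 50.8 CPM with FIIN-3 (log2 fold change -1.37 ± 0.18, adjusted p = 5.05e-07). The secreted stanniocalcin STC2 had 250.4, 281.7 and 345.6 CPM with trametinib, against 463, 496 and 577 CPM with FIIN-3 (log2 fold change -0.82 ± 0.09, adjusted p = 4.94e-08). None of these 4, picked by smallest p, overlapped between arms. Of all genes 5.37% lay wholly below with trametinib.

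Luminal genes did not move together. Of 21 tested, 8 were higher (38.1%) and 4 lower (19%), against 12.6% and 12.5% of all genes, with a median of 0.10. The luminal keratin KRT18 had 12914, 14199 and 15948 CPM with trametinib, against 5854, 6182 and 7167 CPM with FIIN-3 (log2 fold change 1.17 ± 0.08, adjusted p = 1.6e-13). Its partner KRT8 had 18312, 19603 and 22831 CPM with trametinib, against 8736, 9426 and 11321 CPM with FIIN-3 (log2 fold change 1.04 ± 0.08, adjusted p = 6.95e-12), both without overlap. The lower genes included 2 transcription factors. GATA3 had 287.9, 350.1 and 467 CPM with trametinib, against 428, 565 and 636 CPM with FIIN-3 (log2 fold change -0.60 ± 0.11, adjusted p = 8.52e-05). The pioneer factor FOXA1 had 31, 32.6 and 39 CPM with trametinib, against 40.5, 49.9 and 56.1 CPM with FIIN-3 (log2 fold change -0.55 ± 0.13, adjusted p = 0.00203). Of 15 tested basal, squamous and mesenchymal genes, from 35 listed, 6 were higher and 2 lower, with a median of 0.18. IVL, involucrin of the cornified envelope, had 24.3, 50.8 and 58.4 CPM with trametinib, against 7.21, 10.03 and 14.2 CPM with FIIN-3 (log2 fold change 2.09 ± 0.20, adjusted p = 1.88e-09). ANXA1, the phospholipid-binding annexin A1, had 11, 12.9 and 27.3 CPM with trametinib, against 1.86, 6.91 and 8.39 CPM with FIIN-3 (log2 fold change 1.5 ± 0.30, adjusted p = 0.00034). The laminin chain LAMB3 had 8.62, 12.4 and 15.8 CPM with trametinib, against 0.799, 3.85 and 7.12 CPM with FIIN-3 (log2 fold change 1.57 ± 0.31, adjusted p = 0.000305). KRT4, a keratin of stratified mucosa, went the other way, with 0.941, 2.53 and 3.44 CPM with trametinib, against 20.8, 35.1 and 46.7 CPM with FIIN-3 (log2 fold change -3.83 ± 0.27, adjusted p = 1.17e-12). All 4, picked by smallest p, separated the arms, where 11.3% of all genes did.

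**Figure D3:**
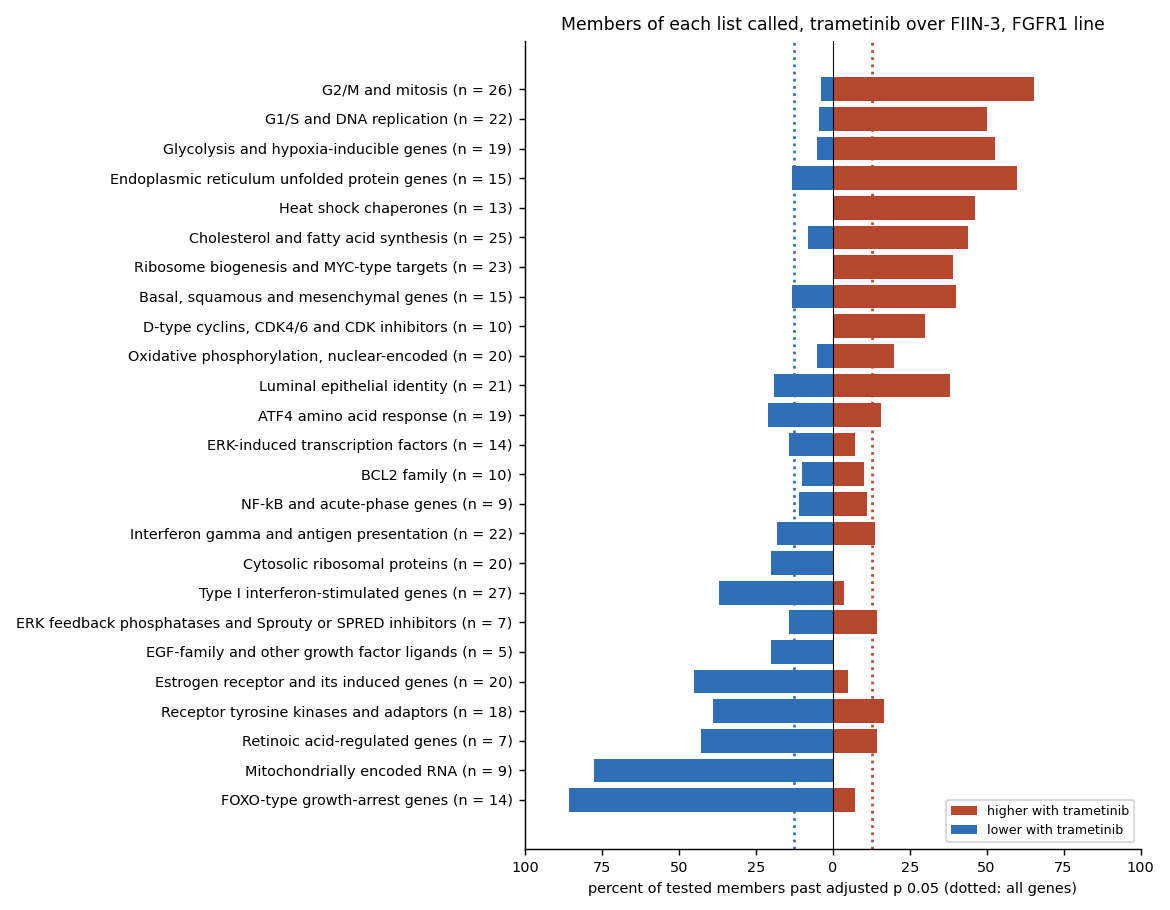
Percent of the tested members of each gene list that were higher (right) or lower (left) with trametinib than with FIIN-3 at an adjusted p under 0.05, with dotted lines at 12.6% and 12.5%, the shares over all genes; lists are ordered by median log2 fold change. Mitosis and replication lists stand at the top, and FOXO-type genes (12 of 14 lower) at the bottom.

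Among interferon genes more were lower than higher. Of 27 tested type I interferon-stimulated genes, from 48 listed, 10 were lower and 1 higher, with a median of -0.19. DHX58, a helicase of RNA sensing, had 3.51, 5.65 and 6.81 CPM with trametinib, against 10.02, 14.5 and 18.6 CPM with FIIN-3 (log2 fold change -1.4 ± 0.26, adjusted p = 9.6e-05). The oligoadenylate synthetase OAS2 had 7.54, 8.83 and 15.5 CPM with trametinib, against 16.6, 24.2 and 29.5 CPM with FIIN-3 (log2 fold change -1.16 ± 0.22, adjusted p = 0.000127). The exonuclease ISG20 was higher, with 10.7, 14.4 and 16.5 CPM with trametinib, against 5.19, 6.81 and 9.69 CPM with FIIN-3 (log2 fold change 0.94 ± 0.24, adjusted p = 0.00323). IRF1, an interferon gamma response factor, had medians of 1.69 and 3.08 CPM and was not tested. Of 22 tested antigen presentation genes 3 were higher (13.6%) and 4 lower (18.2%), close to the 12.6% and 12.5% of all genes, with a median of -0.04. HLA-B had 394.9, 441 and 487 CPM with trametinib, against 260.9, 308.4 and 341.2 CPM with FIIN-3 (log2 fold change 0.50 ± 0.09, adjusted p = 4.28e-05). The immunoproteasome subunit PSMB8 had 21.7, 30.05 and 35.5 CPM with trametinib, against 40.9, 47.1 and 52.7 CPM with FIIN-3 (log2 fold change -0.72 ± 0.15, adjusted p = 0.000402).

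Outside the lists, the largest increases with a mean log2 CPM of at least 3 included SDC1, the cell surface proteoglycan syndecan-1, with 77.6, 84.9 and 106.96 CPM with trametinib, against 10.8, 21.5 and 24.4 CPM with FIIN-3 (log2 fold change 2.16 ± 0.15, adjusted p = 8.44e-13). The sphingosine 1-phosphate receptor S1PR3 had 26.8, 36.1 and 45.9 CPM with trametinib, against 4.96, 7.36 and 8.19 CPM with FIIN-3 (log2 fold change 2.35 ± 0.20, adjusted p = 9.9e-11). The imprinted placental growth gene PHLDA2 had 14.5, 18.4 and 28.9 CPM with trametinib, against 2.4, 3.78 and 7.52 CPM with FIIN-3 (log2 fold change 2.13 ± 0.27, adjusted p = 2.86e-07). SHCBP1, a partner of the SHC adaptor, had 7.53, 15 and 17.2 CPM with trametinib, against 0.655, 2.75 and 3.76 CPM with FIIN-3 (log2 fold change 2.49 ± 0.34, adjusted p = 1.04e-06). The tubulin gene TUBA4A had 101.5, 126.97 and 149.3 CPM with trametinib, against 20.7, 28.4 and 42.3 CPM with FIIN-3 (log2 fold change 2.12 ± 0.15, adjusted p = 6.86e-13). LUM, the proteoglycan lumican, also on the list of markers of other cell types, had 6.38, 14 and 18.8 CPM with trametinib, against 0.791, 2.04 and 3.93 CPM with FIIN-3 (log2 fold change 2.45 ± 0.37, adjusted p = 7.32e-06). Of the 17 other markers on that list 2 could be tested and neither passed: the collagen gene COL1A1 (medians of 28.6 CPM with trametinib and 26.3 CPM with FIIN-3, adjusted p = 0.776) and the actin gene ACTA2 (9.08 and 7.02 CPM, adjusted p = 0.413). COL1A2 and COL3A1 had no read in either arm, and the small proteoglycan gene DCN had 4 reads over the 6 Tram libraries and 21 over the 6 FIIN-3 libraries. VTCN1, the immune checkpoint ligand B7-H4, was not among the largest increases and was chosen after its values were seen. It had 339.4, 371.5 and 432 CPM with trametinib, against 176.9, 194.5 and 220.8 CPM with FIIN-3 (log2 fold change 0.93 ± 0.09, adjusted p = 1.52e-09).

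The largest decreases included several enzymes. CYBRD1, a ferric reductase, had 19.8, 25.7 and 30.4 CPM with trametinib, against 77.5, 114.98 and 137.2 CPM with FIIN-3 (log2 fold change -2.15 ± 0.14, adjusted p = 1.07e-13). SELENBP1, a methanethiol oxidase, had 51.2, 56.5 and 69.1 CPM with trametinib, against 227.05, 244.1 and 284.2 CPM with FIIN-3 (log2 fold change -2.12 ± 0.11, adjusted p = 5.43e-16). The aldehyde dehydrogenase ALDH2 had 5.8, 10.5 and 12.8 CPM with trametinib, against 38.4, 40.5 and 48.2 CPM with FIIN-3 (log2 fold change -2.1 ± 0.18, adjusted p = 1.18e-10). OLR1, the lectin-like receptor of oxidized LDL, had 3.77, 7.93 and 13.5 CPM with trametinib, against 38.5, 44.1 and 53.5 CPM with FIIN-3 (log2 fold change -2.43 ± 0.21, adjusted p = 9.9e-11). The host transcript of miR-205, MIR205HG, had 2.41, 4.79 and 6.58 CPM with trametinib, against 13.2, 18.9 and 24.5 CPM with FIIN-3 (log2 fold change -2.06 ± 0.27, adjusted p = 4.38e-07), as counted for that gene and not for the microRNA. In none of these did a Tram library reach the level of a FIIN-3 library.

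Much of the difference between the drugs was also present in lines without an added FGFR1. In the parental and GFP lines under the same drugs, 12 Tram libraries against 11 FIIN-3 libraries, 2160 genes were higher (19.5%) and 2167 lower (19.6%) of 11056 tested. These shared 1048 of the 1315 higher genes of the FGFR1 line (79.7% of that list and 48.5% of theirs) and 1000 of its 1309 lower genes (76.4% and 46.1%), while 6 and 4 genes were called in the opposite direction. No library is shared between the 2 comparisons. The test of the difference itself, drug by line in edgeR, called 33 genes with a more positive fold change in the FGFR1 line (0.288%) and 40 with a more negative one (0.349%) of 11449 tested, or 0.638%. Of these 73 genes, 29 were called in the same direction in both contrasts, 9 in opposite directions, 19 in the FGFR1 line alone and 16 in the control lines alone.

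**Figure D4:**
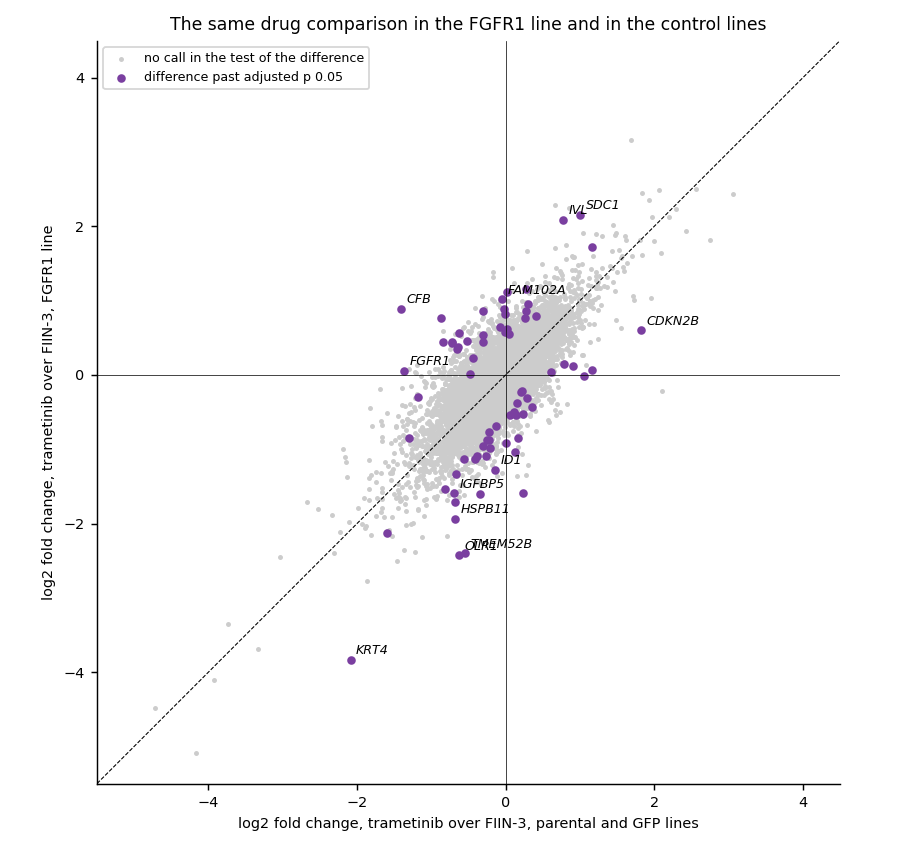
Log2 fold change of trametinib over FIIN-3 in the FGFR1 line (vertical axis) against that in the parental and GFP lines (horizontal axis), 1 point a gene, with a dashed line at equal values. Genes whose difference passed an adjusted p of 0.05 are enlarged, among them OLR1 (-2.43 and -0.63) and FAM102A (1.02 and -0.05).

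FGFR1 itself had fold changes of 0.06 in the FGFR1 line and -1.36 in the control lines, where only the endogenous gene is read, a difference of 1.46 ± 0.19, adjusted p = 1.82e-06. HSPB11, a subunit of the ciliary transport complex, had 39.9, 51.9 and 58.5 CPM with trametinib, against 182.6, 190.5 and 210.7 CPM with FIIN-3 in the FGFR1 line. Its fold change was -1.94 in the FGFR1 line and -0.68 in the control lines, a difference of -1.24 ± 0.12, adjusted p = 7.26e-10. For OLR1 the fold changes were -2.43 in the FGFR1 line and -0.63 in the control lines, a difference of -1.79 ± 0.21, adjusted p = 2.03e-07. TMEM52B, a membrane protein, had 1.88, 3.4 and 6.88 CPM with trametinib, against 14.9, 19.98 and 22.4 CPM with FIIN-3 in the FGFR1 line. Its fold changes were -2.4 in the FGFR1 line and -0.55 in the control lines, a difference of -1.83 ± 0.28, adjusted p = 5.64e-05. FAM102A was higher with trametinib in the FGFR1 line, with 150.5, 218.8 and 261.7 CPM with trametinib, against 79.2, 105.3 and 127.02 CPM with FIIN-3. Its fold changes were 1.02 in the FGFR1 line and -0.05 in the control lines, a difference of 1.08 ± 0.15, adjusted p = 4.93e-06. IGFBP5, an IGF-binding protein, was lower in both, with -1.59 in the FGFR1 line and -0.69 in the control lines, a difference of -0.89 ± 0.13, adjusted p = 2.53e-05. EFEMP1, an extracellular matrix protein, had fold changes of -0.68 in the FGFR1 line and -0.12 in the control lines, a difference of -0.54 ± 0.08, adjusted p = 2.53e-05. ID1, an inhibitor of basic helix-loop-helix factors, had fold changes of -1.27 in the FGFR1 line and -0.14 in the control lines, a difference of -1.12 ± 0.18, adjusted p = 7.45e-05.

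Several genes described above also differed by line. KRT4 had fold changes of -3.83 in the FGFR1 line and -2.09 in the control lines, a difference of -1.74 ± 0.39, adjusted p = 0.0125 that was not called in limma. IVL had fold changes of 2.09 in the FGFR1 line and 0.77 in the control lines, a difference of 1.33 ± 0.29, adjusted p = 0.00894. SDC1 had 2.16 in the FGFR1 line and 1.0 in the control lines (1.17 ± 0.25, adjusted p = 0.00611) and LDHA 1.72 in the FGFR1 line and 1.17 in the control lines (0.57 ± 0.12, adjusted p = 0.00791). CDKN2B was higher in both, with 0.60 in the FGFR1 line and 1.83 in the control lines and a difference of -1.21 ± 0.21, adjusted p = 0.000425. CFB, complement factor B, was called in opposite directions, with 0.89 in the FGFR1 line and -1.4 in the control lines and a difference of 2.31 ± 0.39, adjusted p = 0.000239. The cyclin gene CCND1 did not pass this test, with 1.02 in the FGFR1 line and 0.80 in the control lines and a difference of 0.23 ± 0.18, adjusted p = 0.773. FBXO32 did not pass it either, with -2.0 in the FGFR1 line and -1.93 in the control lines and a difference of -0.06 ± 0.23, adjusted p = 0.972. For PHLDA1 the values were -2.11 in the FGFR1 line and -2.23 in the control lines, a difference of 0.13 ± 0.24, adjusted p = 0.929. Against the FGFR2_WT line, whose own contrast shared 1037 of the higher genes (78.9%) and 964 of the lower genes (73.6%) where 16.4% and 15.9% of its genes were called, the test of the difference called 0 of 11422 genes in edgeR. At an unadjusted p under 0.05 it had 738 genes (6.46%), and the DESeq2 Wald test called 17. That a gene was not called here does not show that the lines acted alike.

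The same drug pair without palbociclib gave 1671 higher genes (13.6%) and 2018 lower genes (16.4%) of 12284 tested. Of the libraries compared here, those with palbociclib belonged to a set of title numbers with a median total of 2902291 reads. Those without it belonged to another set with a median of 7577739, which also holds libraries with palbociclib that were not used. In this comparison palbociclib and set cannot be told apart. The test of the difference called 48 of 11483 genes (0.418%), 7 more positive (0.061%) and 41 more negative (0.357%) with palbociclib. Without palbociclib the Tram libraries lay in title-number ranges 2, 3 and 4 and the FIIN-3 libraries in ranges 1, 3 and 4. With palbociclib both arms lay in ranges 1, 2 and 3. Drug and range are thus partly mixed in the pair without palbociclib. With a block by title-number range the test called 52 genes, 33 of them among the 48. Of the 48, 4 were on the replication list and 2 on the mitosis list. Among 22 replication genes tested in both, 11 were higher and 1 lower with palbociclib, while 20 were higher and 0 lower without it, with medians of 0.56 and 1.09. The fold change was lower with palbociclib for 20 of the 22, against 47.9% of all 10435 genes tested in both, and the difference passed the test for 4: MCM6, MCM2, RRM1 and CHAF1B. Among 26 mitotic genes, 17 were higher and 1 lower with palbociclib, while 25 were higher and 0 lower without it, with medians of 0.91 and 1.48. The fold change was lower with palbociclib for 21 of the 26, and the difference passed the test for HMGB2 and, in the other direction, CDC20. Levels differed as well, and were not tested. With trametinib the median of TK1 was 87.5 CPM with palbociclib and 743.2 CPM without it, and that of PLK1 13.7 and 189.4 CPM. For CCND1 the medians were 140.2 CPM with palbociclib and 80.5 CPM without it.

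**Figure D5:**
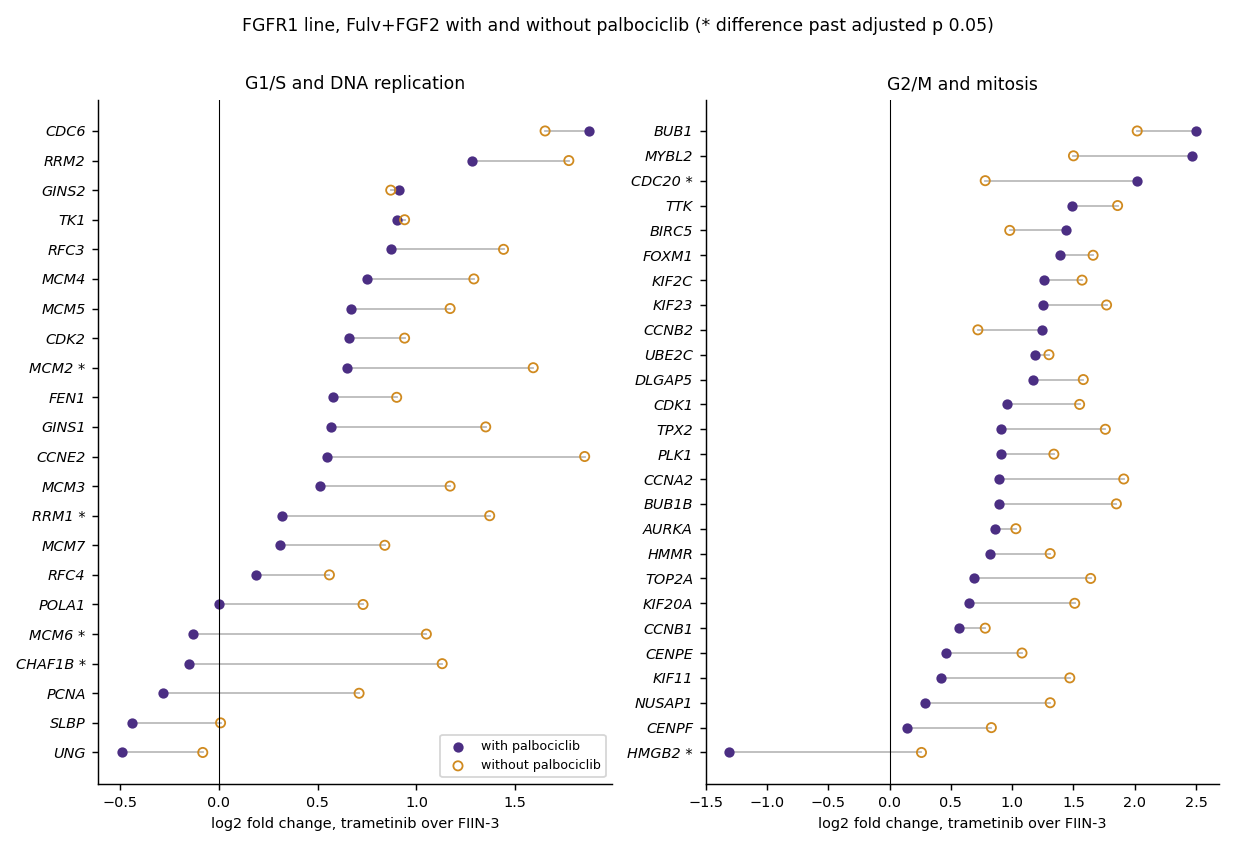
Log2 fold change of trametinib over FIIN-3 for the replication (left) and mitosis (right) lists in the FGFR1 line, with palbociclib (filled) and without it (open), each gene on a line of its own; a star marks genes whose difference passed an adjusted p of 0.05. Open points lie right of the filled ones for 20 of 22 and 21 of 26 genes, with CDC20 (2.02 with and 0.78 without) on the other side.

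HMGB2 had a fold change of -1.31 with palbociclib and 0.26 without it, a difference of -1.59 ± 0.24, adjusted p = 0.000371. The helicase subunit MCM6 had -0.13 with palbociclib and 1.05 without it, a difference of -1.21 ± 0.21, adjusted p = 0.00141. The differences of the other 3 replication genes were -0.96 (adjusted p = 0.0393) for MCM2, -1.07 (adjusted p = 0.00767) for RRM1 and -1.29 (adjusted p = 0.0316) for CHAF1B. MCM2 lost this call without any one of 9 of the 12 libraries with palbociclib and CHAF1B without any one of 6, and both lost it with a block by title-number range. SKP2, the ubiquitin ligase subunit that removes p27, was lower with palbociclib, with 9.41, 12.5 and 19.1 CPM with trametinib, against 21.6, 26 and 32.8 CPM with FIIN-3. Its fold changes were -0.97 with palbociclib and 0.85 without it, a difference of -1.85 ± 0.28, adjusted p = 0.000371. DUT, the dUTPase, had -0.77 with palbociclib and 0.61 without it (-1.4 ± 0.22, adjusted p = 0.000371). CCNF, cyclin F, had -0.06 with palbociclib and 1.18 without it (-1.26 ± 0.22, adjusted p = 0.00186). CDCA4, an E2F-regulated gene, had -0.36 with palbociclib and 1.03 without it (-1.42 ± 0.21, adjusted p = 0.000371). CDC20 had 2.02 with palbociclib and 0.78 without it, a difference of 1.23 ± 0.25, adjusted p = 0.011. CCND1 had 1.02 with palbociclib and 0.31 without it and did not pass the test of the difference (0.69 ± 0.20, adjusted p = 0.129).

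Finally, the effect of FIIN-3 itself was read from libraries that the drug comparison did not use: the FGFR1 line on Palbo+FGF2 with FIIN-3, against the same without FIIN-3. In 1 library with FIIN-3, replicate 5, FGFR1 stood at 445 CPM, against 1200.1 CPM or more in the other 5, and results are given with and without it. With all libraries 940 genes rose (8.84%) and 797 fell (7.5%) of 10631 tested with FIIN-3, and without replicate 5 the calls were 1553 that rose (14.4%) and 1691 that fell (15.7%) of 10764. In the limma fit 20.2% of the called genes rose, against 54.1% here. Of the 1315 genes higher with trametinib than with FIIN-3, 24.3% fell and 1.4% rose when FIIN-3 was added to Palbo+FGF2, or 55.1% and 3.1% without replicate 5, where 15.7% and 14.4% of all genes did. The shared genes were 40% of all those that fell, or 42.9% without replicate 5. Of the 1309 lower genes, 37.3% rose and 3.7% fell, or 49.8% and 6.3% without replicate 5. These were 51.9% of all the genes that rose, or 42% without replicate 5.

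By gene, CCND1 fell with FIIN-3 to 102.5, 128.5 and 143.9 CPM, against 315.3, 369.6 and 417 CPM without it (log2 fold change -1.5 ± 0.13, adjusted p = 2.04e-07, and -1.45 without replicate 5). LDHA fell to 412, 445 and 801 CPM, against 1006, 1078 and 1100.0 CPM without it (log2 fold change -1.06 ± 0.17, adjusted p = 0.000203, and -1.26 without replicate 5). KRT18 also fell (log2 fold change -1.2 ± 0.17, adjusted p = 6.03e-05, and -1.39 without replicate 5), as did IVL (log2 fold change -4.08 ± 0.25, adjusted p = 5.47e-09, and -4.26 without replicate 5) and PHLDA2 (log2 fold change -3.36 ± 0.22, adjusted p = 9.66e-09, and -3.38 without replicate 5). KLHL24 rose to 39.1, 54.5 and 68.2 CPM, against 12.5, 14.2 and 16.7 CPM without it (log2 fold change 1.96 ± 0.16, adjusted p = 1.48e-07, and 2.03 without replicate 5), and BTG1 rose as well (log2 fold change 1.81 ± 0.17, adjusted p = 6.53e-07, and 1.7 without replicate 5). Each of these was set apart in the drug comparison in the direction opposite to its change with FIIN-3. Others did not follow that pattern. PHLDA1 fell with FIIN-3 (log2 fold change -1.34 ± 0.15, adjusted p = 4.82e-06, and -1.23 without replicate 5) and was lower still with trametinib than with FIIN-3 (log2 fold change -2.11). HSPB1 rose with FIIN-3 (log2 fold change 0.95 ± 0.19, adjusted p = 0.00154, and 0.74 without replicate 5) and was higher still with trametinib (log2 fold change 1.6). DUSP4 fell with FIIN-3 (log2 fold change -2.45 ± 0.16, adjusted p = 7.99e-09, and -2.41 without replicate 5). FBXO32 did not pass the test with all libraries (log2 fold change 0.35 ± 0.15, adjusted p = 0.121, and 0.36 without replicate 5), and adjusted p was 0.0317 without replicate 5. The effect of trametinib against no inhibitor was not analysed here.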

How the data were processed

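RNA was read by SMART-Seq2 from lysates of 96-well plates, per the labels' protocols. The authors deposited read counts per gene for 54592 genes, and a second table of log2 values that come from TPM + 1 per the file's name and values, each library summing to 1000000 once the log is undone; 577 columns of that table were not used. STAR and hg19 are named in the submitters' processing notes; neither the counting program nor any version is stated there.

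The counts as deposited were tested with edgeR 4.0.16 in R 4.3.3 (quasi-likelihood test, scaling by TMM, low genes removed by filterByExpr at a count of 10, p-values adjusted by Benjamini-Hochberg over every gene tested, threshold 0.05), between arms or as the interaction of drug with line or palbociclib. Title numbers fall in runs of 96, called title-number ranges; replicate numbers follow accession order and pair nothing. Replicate libraries of a group differed beyond sampling noise (chi-square per degree of freedom of at least 2.96). Alternatives were DESeq2 size factors, no filter, the DESeq2 1.42.0 Wald test, limma 3.58.1 with a trend on the deposited log2 values, a block by title-number range, and libraries left out 1 at a time (in the tests of a difference, only those of the main comparison and of arms with 5 libraries). The tests were checked on simulated counts. At a true log2 change of 1, 83.5% of changed genes were recovered in the main comparison and 68.8% for FIIN-3 on Palbo+FGF2. In the tests of a difference the share was 63.6% against the control lines, 48.5% against FGFR2_WT and 45.3% with against without palbociclib. Promoters came from RefSeq. CPM were computed here with TMM factors over the 70 libraries used.

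The members and gene lists were chosen with earlier results of these data known. Named genes were a fixed set of receptors and markers, the 15 largest called changes per direction with a mean log2 CPM of at least 3 and 1 sign in all 3 title-number ranges, up to 6 members of each list by smallest p, and the 10 smallest p-values per interaction. Genes outside that rule (EGR1, FOSL1, EGFR, MYBL2, PLK1, VTCN1, MCM2, RRM1 and CHAF1B) were chosen after their values were seen. Some genes that this rule names are not reported here.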

Additional observations from a re-analysis of the deposited data

Results flagged for a closer look

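Each named gene with a median of at least 1 CPM in an arm was searched for a library far from the other 5 by Dixon's 95% limit on log2(CPM + 1), and 14 such values were found, 6.4% of the sets searched. Chance alone gives about 1 in 20 sets of 6 libraries, and the number found is near that. The sets are not independent, since each library enters the sets of many genes. The total therefore does not show whether a single library stands apart. One library recurred: FIIN-3 replicate 6 was low for PGR (58.7 CPM), ERBB2 (189.3 CPM), ERBB3 (247.7 CPM), PFKFB3 (33.9 CPM), SCD (202.1 CPM) and CCNF (35.9 CPM). That library stood apart from its arm over all genes too. Its pairs with other FIIN-3 libraries had a chi-square per degree of freedom of 7.93 to 11.01. Pairs among the other FIIN-3 libraries had 3.04 to 5.65, and pairs within the Tram arm 2.96 to 8.5. Without FIIN-3 replicate 6, 2822 genes were called between the arms, against 2624 with all libraries. Trametinib replicate 6 was low for ERBB3 (199.4 CPM) and PFKFB3 (14.1 CPM). Trametinib replicate 2 was low for DUSP1 (23.3 CPM) and PFKP (95.4 CPM), and trametinib replicate 1 for DUSP4 (0.967 CPM). The other FIIN-3 values were FGF12 at 9.5 CPM in replicate 4, BCL6 at 72.3 CPM in replicate 5 and SREBF1 at 28.2 CPM in replicate 2, all low. Of the genes these libraries touch, DUSP4 lost its call without trametinib replicate 1.

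Other genes stand here because the test of the difference between 2 settings called them. The difference in log2 fold change between the FGFR1 line and the control lines was 1.46 for FGFR1, 2.31 for CFB, 1.33 for IVL, 1.17 for SDC1, 1.08 for FAM102A and 0.57 for LDHA. It was negative for TMEM52B (-1.83), OLR1 (-1.79), KRT4 (-1.74), HSPB11 (-1.24), CDKN2B (-1.21), ID1 (-1.12), IGFBP5 (-0.89), EFEMP1 (-0.54) and SELENBP1 (-0.51). The SELENBP1 difference was not called in limma or without any one of Tram replicates 1 and 4 and FIIN-3 replicates 5 and 6. With against without palbociclib, which is also 1 set of title numbers against another, the difference was 1.23 for CDC20. It was negative for SKP2 (-1.85), HMGB2 (-1.59), CDCA4 (-1.42), DUT (-1.40), CHAF1B (-1.29), CCNF (-1.26), MCM6 (-1.21), RRM1 (-1.07) and MCM2 (-0.96).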

How the results depend on the processing

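Between trametinib and FIIN-3 in the FGFR1 line 2624 genes were called, and 2230 to 2822 with each library left out. The count was 2649 with DESeq2 size factors, 2750 in the Wald test and 2749 with a replicate block. With no filter it was 2489, of which 2237 were among the main calls. In limma it was 2852, with 2086 higher and 766 lower, and 2063 were among the main calls. No gene called in both the main fit and any of these changed sign. In the tests of a difference, the libraries left out were the 12 of the main comparison and the 5 of the GFP or FGFR2_WT line on FIIN-3, and no others. The difference from the control lines gave 33 more positive genes (52 in the Wald test, 22 to 36 with libraries left out) and 40 more negative ones (62 in the Wald test, 33 to 68 with libraries left out, the highest without Tram replicate 6). Against FGFR2_WT it gave 0 genes, 12 with no filter, 17 in the Wald test, 5 in limma, 2 with the block and 0 to 4 with libraries left out. With against without palbociclib it gave 48 genes, 94 with no filter, 91 in the Wald test, 66 in limma and 52 with the block. Of those 52, 33 were among the 48. With libraries left out it gave 31 to 65 genes, the lowest without FIIN-3 replicate 1 or 4. FIIN-3 on Palbo+FGF2 gave 1737 genes and 1320 to 3244 with libraries left out, the highest without replicate 5. In limma it gave 2109, of which 427 rose and 1682 fell, and 1219 were among the 1737. Single genes that changed sign were MCM6 (0.03 in limma), CCNF (0.07 in limma, -0.13 to 0.03 with libraries left out, the highest without Tram replicate 1), neither of them called, and the called DUSP1 within the second title-number range (-0.04). The causes were not tested. Deviations of same-numbered ranges correlated at 0.158, 0.136 and 0.003, and those of different ranges at -0.185 to 0.077. Whether the ranges pair the libraries was not tested. No library used fell under the limits on total count or on MT-RNR2 share, so those alternatives gave no other value. Leaving out the mitochondrial genes was chosen after seeing the data. At these depths, genes of a few CPM are the least certain.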

Other observations

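Some smaller lists held a few called genes, where 12.6% of all genes were higher and 12.5% lower. The shares in the BCL2 family (10% each way) and the NF-kB list (11.1% each way) were no larger than that. In the BCL2 family 10 of 16 listed genes were tested, 1 higher, 1 lower and a median of 0.04. BIK, a BH3-only killer protein, had 5.35, 10.7 and 14.1 CPM with trametinib, against 1.58, 3.16 and 5.24 CPM with FIIN-3 (log2 fold change 1.67 ± 0.33, adjusted p = 0.000291). BCL2L1, which encodes BCL-XL, had 133.6, 159.5 and 189.4 CPM with trametinib, against 188.7, 200.97 and 226.4 CPM with FIIN-3, with overlap between arms (log2 fold change -0.33 ± 0.09, adjusted p = 0.00947). That call was lost in the limma fit. Of 16 listed genes of retinoic acid 7 were tested, 1 higher and 3 lower, with a median of -0.41. The retinoic acid-binding protein CRABP2 was higher, with 481, 576 and 643 CPM with trametinib, against 386.6, 429.5 and 472 CPM with FIIN-3 (log2 fold change 0.41 ± 0.09, adjusted p = 0.00072), and the retinaldehyde reductase DHRS3 lower, with 7.54, 17.7 and 22 CPM with trametinib, against 22, 26.8 and 33.3 CPM with FIIN-3 (log2 fold change -0.74 ± 0.21, adjusted p = 0.00749). Of 34 listed NF-kB and acute-phase genes 9 were tested, 1 higher and 1 lower, with a median of 0.03. CFB, complement factor B, was the higher one, with 5.32, 15.5 and 18.2 CPM with trametinib, against 3.42, 8.0 and 9.91 CPM with FIIN-3 (log2 fold change 0.89 ± 0.29, adjusted p = 0.0202), a call lost without Tram replicate 2 or FIIN-3 replicate 3.

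Genes of the basic cell machinery were also counted. Of 20 nuclear-encoded genes of oxidative phosphorylation 4 were higher (20%) and 1 lower (5%), against 12.6% and 12.5% of all genes. Their median was 0.12. Of 20 cytosolic ribosomal protein genes none was higher and 4 were lower, with a median of -0.13. RPL3 had 1200.1, 1369 and 1457 CPM with trametinib, against 1497, 1625 and 2074 CPM with FIIN-3 (log2 fold change -0.32 ± 0.08, adjusted p = 0.00444), a call lost in the limma fit. Of 9 mitochondrially encoded RNAs 7 were lower with trametinib and none higher, with a median of -0.48, and MT-RNR2 had a log2 fold change of -0.49 (adjusted p = 0.000117).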
